A study of Mus musculus with 8 samples.

Results

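Id1, Id2 and Id3 are small helix-loop-helix proteins that inhibit transcription, and Tcf3, Tcf4 and Tcf12 are the E proteins they bind. Every probe set annotated to 1 of these 6 genes was taken, which gave 16 of the 22626 probe sets of the array that are not controls. A probe set is a group of short oligonucleotides that together report 1 transcript or a few. The RNA came from splenic T cells of Gfi1-knockout and wildtype C57Bl/6 mice, which a pan-T cell kit had enriched on magnetic columns, and was hybridised to 8 Affymetrix MOE430A_2.0 arrays. Arrays are called KO-labelled and WT-labelled by the genotype in their titles. Each genotype had 1 array before stimulation (0 h) and 1 each after 4, 8 and 24 h in culture with antibodies against CD3 and CD28 at 2 µg/ml. The titles give 1 source number per genotype, and the ages of the mice and the number of animals behind a source are not given in the sources used here. No array holds cells kept in culture without the antibodies, so the effect of the antibodies and that of time in culture cannot be told apart.

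E proteins are basic helix-loop-helix transcription factors that bind as dimers to the E-box, a short DNA motif, in lymphoid genes. Id proteins have the helix-loop-helix domain but lack the basic region that touches DNA, so a dimer of an Id protein and an E protein does not bind the E-box. In thymocytes, signals of the T cell receptor raise Id3 through Egr factors, and Id2 and Id3 are known to restrain E proteins in naive, effector and memory T cells. Tcf3 encodes E2A (the proteins E12 and E47), Tcf12 encodes HEB and Tcf4 encodes E2-2, a factor of plasmacytoid dendritic cells and B cells. These genes are not Tcf7l1 and Tcf7l2, factors of Wnt signalling that have shared the protein names TCF3 and TCF4. Gfi1, a zinc finger repressor, has been described as a repressor of Id2 in mouse blood progenitors.

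The sequences upstream of Id2, Id3 and Tcf3 are shown because Id2 at 24 h and Id3 at 0 h had the largest differences between the genotypes in each direction, and Tcf3 held the probe set that passed the test of stimulation. Each is the 250 bases before the gene's start in RefSeq on GRCm38.p6, 5′ to 3′ on the gene's strand, with each E-box (CANNTG) in capitals.
Id2: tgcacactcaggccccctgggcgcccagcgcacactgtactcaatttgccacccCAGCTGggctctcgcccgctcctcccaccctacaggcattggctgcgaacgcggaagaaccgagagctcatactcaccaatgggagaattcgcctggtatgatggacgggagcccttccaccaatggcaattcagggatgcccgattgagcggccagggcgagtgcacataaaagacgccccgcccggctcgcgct
Id3: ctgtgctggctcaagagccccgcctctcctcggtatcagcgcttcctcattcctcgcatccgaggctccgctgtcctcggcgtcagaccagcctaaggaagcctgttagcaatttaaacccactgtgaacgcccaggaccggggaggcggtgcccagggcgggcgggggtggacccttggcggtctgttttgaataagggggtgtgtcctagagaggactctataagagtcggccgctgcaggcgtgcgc
Tcf3: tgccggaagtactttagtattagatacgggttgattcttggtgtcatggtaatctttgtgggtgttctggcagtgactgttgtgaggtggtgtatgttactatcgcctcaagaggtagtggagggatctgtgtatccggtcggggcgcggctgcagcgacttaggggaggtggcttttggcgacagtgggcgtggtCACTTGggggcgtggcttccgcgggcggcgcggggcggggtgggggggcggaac
The Id2 sequence lies at chr12:25096093-25096342 on the minus strand, the Id3 sequence at chr4:136143572-136143821 on the plus strand and the Tcf3 sequence at chr10:80433636-80433885 on the minus strand. Id2 held 1 E-box, CAGCTG, 196 to 191 bases before the start, and Tcf3 held 1, CACTTG, 54 to 49 bases before it. Id3 held 0 in this window. The core of the Gfi1 site, AATC on either strand, occurred 1 time upstream of Id2, 2 times upstream of Tcf3 and 0 times upstream of Id3. The Egr motif GCGNGGGCG, searched on both strands, occurred in none of the 3. Of 32851 upstream windows of this length in the table, 66.2% held an E-box, 69% the AATC core and 4.7% the Egr motif, so an E-box or an AATC core in such a window is common, and a match of letters is not a bound site.

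Signals are given as deposited, on a linear scale. Values under a floor of 141.88, the median of the arrays' 40th percentiles, were raised to it before taking log2, and a difference against such a value is a lower bound. Of the 16 probe sets, 14 were above the floor on at least 2 arrays, and each of the 6 genes had at least 1 of these. The Tcf3 probe set 1452542_x_at was above the floor on 1 array only (183.8 in the KO-labelled 0 h array), and the Tcf4 probe set 1416725_at on none. The 3 probe sets of Id4, the remaining Id gene, were under the floor on all 8 arrays. Levels are compared within a probe set and never between probe sets.

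Gfi1 itself gave 2316, 5979, 6459 and 9885 at 0, 4, 8 and 24 h in the KO-labelled arrays, against 882, 6359, 5259 and 3966 in the WT-labelled ones. Whether its probe set lies inside the deleted segment is not stated, so it checks nothing about the labels. All 8 tested T cell markers were above the floor on every array, and their summed signal ran from 16812 to 43968 in the KO-labelled and from 43572 to 67363 in the WT-labelled arrays. The 11 granulocyte precursor markers summed to 5719 to 166279 in the KO-labelled and to 866 to 15416 in the WT-labelled arrays. Camp, Ltf and Ngp went the other way at 0 and 4 h. Their log2 differences were -0.56, -0.60 and -0.54 at 0 h and -0.82, -0.21 and -0.81 at 4 h. Of the 11, 7 were 2-fold or more higher in the KO-labelled array at every time, beside 1.59% of all probe sets. The 8 monocyte and macrophage markers summed to 21988 to 66948 in the KO-labelled and to 3647 to 13203 in the WT-labelled arrays, and 6 of 8 met the same rule. The 6 tested B cell markers summed to 517 to 2863 in the KO-labelled and to 1195 to 5250 in the WT-labelled arrays. In bulk RNA, fewer cells of a type and less RNA per cell cannot be told apart.

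**Figure D1:**
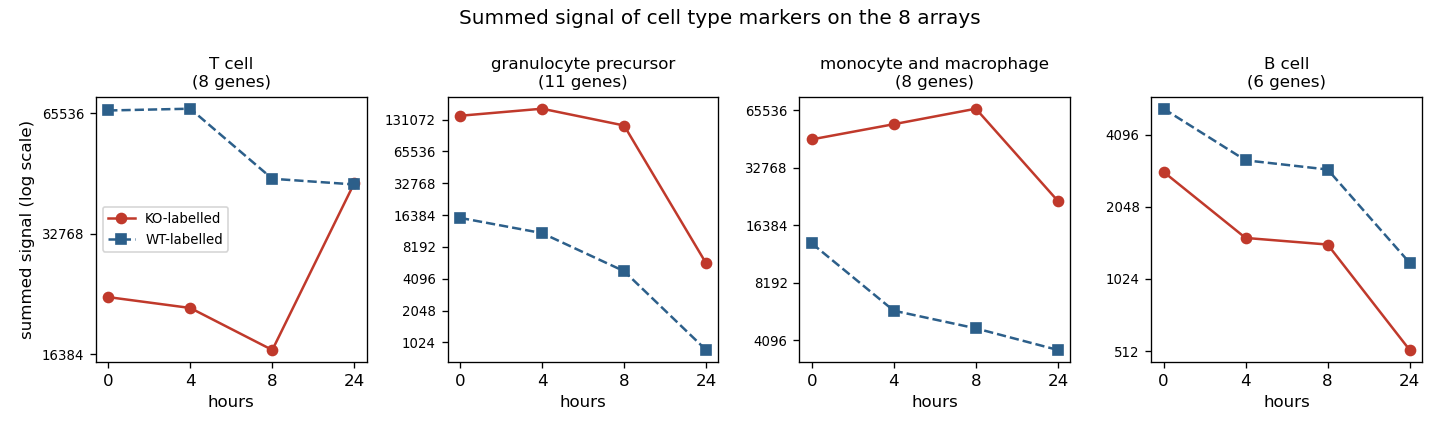
Summed signal (log scale) of the tested markers of 4 cell types against hours of stimulation (evenly spaced), with red circles for the KO-labelled and blue squares for the WT-labelled array. The granulocyte and monocyte sums are higher in the KO-labelled array at each time, and the T cell sums of the 2 genotypes meet at 24 h.

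The first comparison asks how the 6 genes differed between KO-labelled and WT-labelled cells at each time. Id1 and Tcf4 were higher in the KO-labelled array at all 4 times, Id3 was lower at all 4, and Id2 was lower at 0 h and higher at 24 h. With the floor at the 60th percentile the 24 h differences of Id1 and of the Tcf4 probe set 1416723_at were 0. Tcf3 and Tcf12 differed by less than 2-fold at every time, though with each array divided by its median both Tcf3 probe sets were over 2-fold lower at 24 h (-1.08 and -1.01). With 1 array per genotype and time there is no replicate, so these differences are given by size, with no p-value. At 0 h, 3 of the 14 probe sets were at least 2-fold higher and 3 at least 2-fold lower, beside 7.48% and 7% of the 15062 probe sets tested. At 4 h the counts were 5 higher and 0 lower (10.3% and 6.79% of all), at 8 h 4 and 1 (10.4% and 6.77%), and at 24 h 4 and 1 (8.36% and 4.87%). Probe sets of 1 gene share their transcripts and are not independent of each other.

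**Figure D2:**
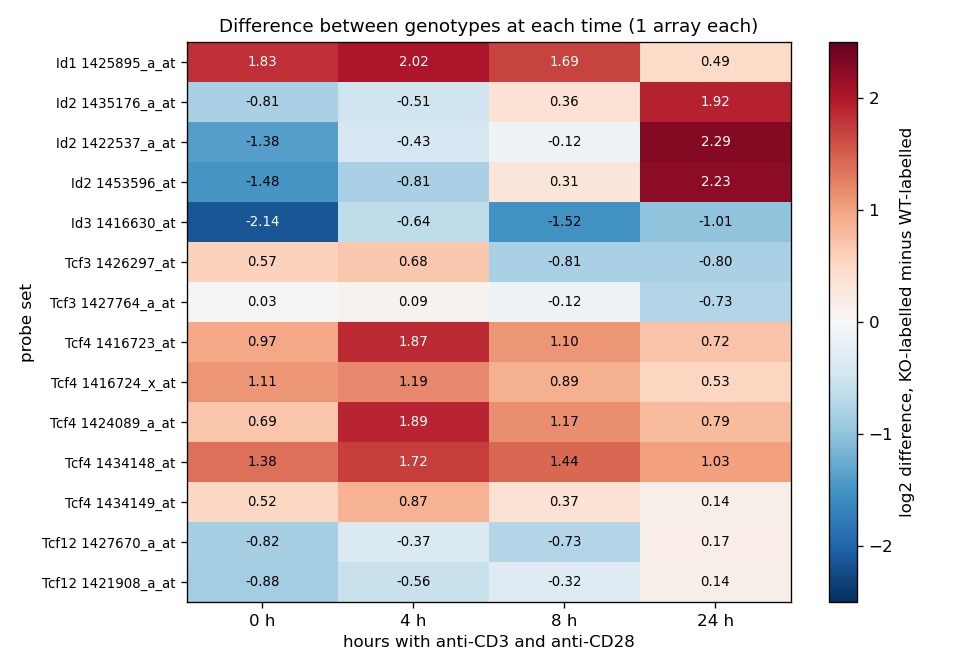
Log2 difference, KO-labelled minus WT-labelled, of each of the 14 probe sets (rows) at each time (columns), from 1 array per genotype. Red cells are higher and blue cells lower in the KO-labelled array; the 5 Tcf4 rows are red throughout, the Id3 row is blue throughout, and the 3 Id2 rows are blue at 0 and 4 h and red at 24 h.

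Id1, an Id protein that BMP and growth factor signals raise in many cell types, has 1 probe set (1425895_a_at). It gave 505.6, 1697, 1288 and 402.9 at 0, 4, 8 and 24 h in the KO-labelled arrays, against 112.6, 417.9, 400.3 and 287.6 in the WT-labelled ones. The WT-labelled 0 h signal was under the floor, and the other 7 were above it. The KO-labelled signal was at least 3.56-fold higher at 0 h, 4.06-fold higher at 4 h, 3.22-fold higher at 8 h and 1.4-fold higher at 24 h. Highest of all 8 were the KO-labelled 4 h and 8 h arrays, but the ranges of the genotypes overlap, since the KO-labelled 24 h signal was below the WT-labelled 4 h signal. With the floor at the 60th percentile the 0 h difference was 0.08 on the log2 scale in place of 1.83. The summed markers of granulocytes and of monocytes stood higher in these arrays too, and their part in the Id1 difference was not tested.

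Id2, the Id protein on which natural killer cells and innate lymphoid cells depend, has 3 probe sets that correlated with each other at r = 0.91 to 0.96 over the 8 arrays. The one with the highest mean, 1435176_a_at, gave 4444, 2824, 4248 and 13177 in the KO-labelled arrays at 0, 4, 8 and 24 h, against 7799, 4010, 3315 and 3483 in the WT-labelled ones. The KO-labelled 24 h array stood above all others, and the WT-labelled 0 h array came next. The second, 1422537_a_at, gave 1865, 1288, 2072 and 7281 in the KO-labelled arrays, against 4866, 1730, 2252 and 1486 in the WT-labelled ones. The third, 1453596_at, gave 345.2, 213, 294.6 and 892.2 in the KO-labelled arrays, against 960.3, 372.5, 238.1 and 189.9 in the WT-labelled ones. In all 3 the KO-labelled array was lower at 0 and 4 h and higher at 24 h. The log2 differences were -0.81, -1.38 and -1.48 at 0 h and 1.92, 2.29 and 2.23 at 24 h, in the order named.

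The genotypes also took different courses in Id2 after 0 h. Between 0 and 24 h the 3 probe sets differed by 1.57, 1.96 and 1.37 on the log2 scale in the KO-labelled arrays and by -1.16, -1.71 and -2.34 in the WT-labelled ones. The change in the KO-labelled arrays was therefore at least 4-fold above that in the WT-labelled ones in all 3, beside 3.32% of all probe sets (0 of the 14 lay as far below, beside 2.41%), a difference that was not tested for want of replicates. Between 8 and 24 h alone the KO-labelled arrays differed by 1.63, 1.81 and 1.6. In those arrays the summed T cell markers stood at 43968 at 24 h beside 16812 at 8 h, and the granulocyte markers at 5719 beside 115304. The T cell sum at 24 h was close to that of the WT-labelled array (43572). Single T cell markers ran both ways at 24 h, with Thy1 at 1.6 and Trat1 at -1.91, and their median difference was -0.23. The part of these shifts in the Id2 signal was not tested. Of the natural killer cell markers, Klrd1 differed by 2.2 and Nkg7 by 1.41 at 24 h, while Eomes differed by -0.47.

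Id3, the Id protein abundant in naive T cells, has 1 probe set (1416630_at), which gave 311, 363.1, 180.2 and 297.5 in the KO-labelled arrays, against 1375, 564.4, 515.7 and 598.5 in the WT-labelled ones. Each KO-labelled signal was below each WT-labelled one, with 1 source per genotype. The share of all probe sets with such a split was not computed, so how common it is cannot be said here. The log2 differences were -2.14, -0.64, -1.52 and -1.01 at 0, 4, 8 and 24 h, all 4 in 1 direction, beside 13.7% of probe sets lower at all 4 times. These placed Id3 at percentiles 0.367, 15.5, 1.49 and 4.93 of the 8457 genes tested at 0, 4, 8 and 24 h. The T cell markers were lower in the same arrays at 0, 4 and 8 h, with medians of -1.68, -1.7 and -1.64, and their median was -0.23 at 24 h. The part of this in the Id3 difference was not tested. With the floor at the 60th percentile the 8 h and 24 h differences shrank to -0.11 and -0.32.

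Tcf4 has 5 tested probe sets, and all 5 were higher in the KO-labelled array at each of the 4 times, as were 12% of all probe sets. The one with the highest mean, 1416723_at, gave 1277, 1392, 895.6 and 440.1 in the KO-labelled arrays, against 653, 379.9, 417.7 and 266.7 in the WT-labelled ones. The KO-labelled 0, 4 and 8 h signals stood above all 4 WT-labelled ones, and the KO-labelled 24 h signal lay within their range. Its differences were 0.97, 1.87, 1.1 and 0.72 on the log2 scale. The probe set 1434148_at gave 826.2, 590.8, 501.5 and 290.2 in the KO-labelled arrays, against 317.5, 179.4, 184.7 and 136.2 in the WT-labelled ones. It was the 1 probe set of the 14 at least 2-fold higher at all 4 times, beside 1.59% of all probe sets, and 0 were lower at all 4, beside 0.153%. At 24 h its WT-labelled signal was under the floor and its difference of 1.03 was a lower bound, and 0 of the 14 passed at all 4 times with quantile normalization, on scaling to array medians, with the floor at the 60th percentile or with the floor value added before log2. The 3 others differed by 0.14 to 1.89, the smallest in 1434149_at at 24 h and the largest in 1424089_a_at at 4 h. The smallest is a lower bound, since the WT-labelled 24 h signal of 1434149_at (102.3) was under the floor.

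Tcf4 is abundant in B cells and plasmacytoid dendritic cells, and the median differences of the markers of these cells were below 0 at each time. The 6 tested B cell markers had median differences of -0.52, -1.03, -0.66 and -0.32 at 0, 4, 8 and 24 h. The 6 tested plasmacytoid dendritic cell markers had -0.79, -0.38, -0.52 and -0.18, and single members ran both ways, with Spib at -2.17 and Irf8 at 2.03 at 0 h, and Bst2 at 1.26 and 1.03 at 8 and 24 h. Siglech and Klk1, defining markers of plasmacytoid dendritic cells, were not among the tested genes. The median differences of the monocyte and macrophage markers were 2.14, 3.81, 4.14 and 3.17 in the same arrays, and their part in the Tcf4 difference was not tested.

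Tcf3 and Tcf12, the E proteins of developing and mature T cells, differed less. The Tcf3 probe set 1426297_at gave 1623, 672.3, 377 and 454.2 in the KO-labelled arrays, against 1091, 420.8, 662.3 and 793 in the WT-labelled ones. It was 1.49-fold and 1.6-fold higher at 0 and 4 h in the KO-labelled array and 1.76-fold and 1.75-fold lower at 8 and 24 h. The Tcf12 probe set 1427670_a_at gave 2937, 2924, 2408 and 4089 in the KO-labelled arrays, against 5197, 3780, 3992 and 3624 in the WT-labelled ones. The second Tcf12 probe set, 1421908_a_at, gave 1895, 2094, 1543 and 2735 in the KO-labelled arrays, against 3485, 3095, 1922 and 2473 in the WT-labelled ones. Both Tcf12 probe sets were lower at 0, 4 and 8 h, with differences of -0.32 to -0.88 on the log2 scale, and stood at 0.17 and 0.14 at 24 h.

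**Figure D3:**
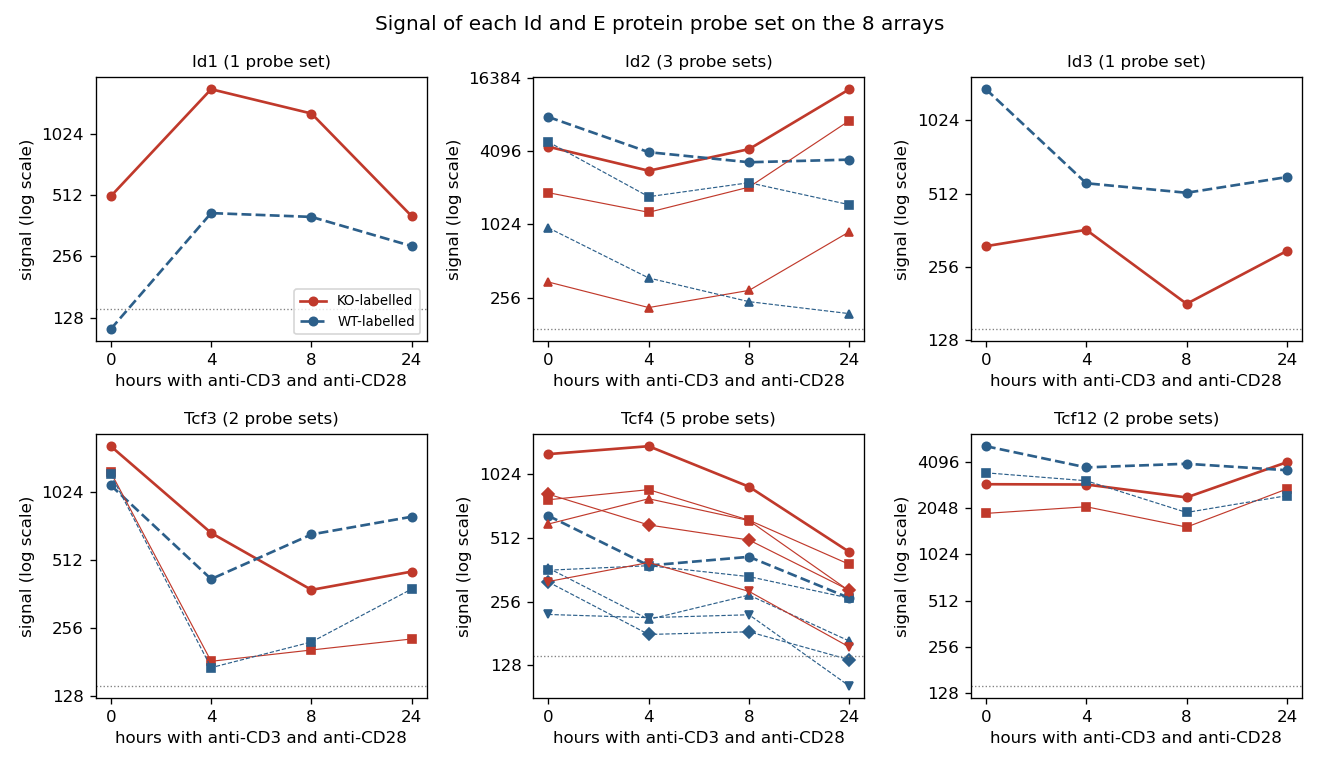
Signal (log scale) of the 14 tested probe sets against hours of stimulation (evenly spaced), 1 array per point, with solid red lines for the KO-labelled and dashed blue lines for the WT-labelled arrays; heavy lines mark the probe set with the highest mean and the dotted line the floor of 141.88. In Id1 the KO-labelled line lies above the WT-labelled one at each time, and in Id3 it lies below. In Id2 the KO-labelled lines end highest at 24 h, and in Tcf3 the lower pair of lines drops in both genotypes by 4 h.

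The second comparison asks what differed from 0 h after 4, 8 and 24 h of stimulation, in both genotypes together. Tcf3 fell, in 1 of its 2 tested probe sets. The other 13 probe sets did not pass at any time. The test was limma over all 15062 probe sets, with time and genotype in the model, and a probe set was called at 2-fold or more with an adjusted p below 0.05. Its error comes from how far the 2 genotypes' responses differ, so it does not measure how separate mice or cultures of a genotype vary.

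The Tcf3 probe set 1427764_a_at gave 1245, 182.5, 204.7 and 229 at 0, 4, 8 and 24 h in the KO-labelled arrays, against 1219, 171.1, 222.1 and 380.6 in the WT-labelled ones. Both 0 h arrays stood far above the 6 later ones, and the genotypes differed by 0.03, 0.09, -0.12 and -0.73 on the log2 scale at 0, 4, 8 and 24 h. It fell by 2.80 on the log2 scale at 4 h (SE 0.33, limma adjusted p = 0.0203), fell by 2.53 at 8 h (adjusted p = 0.0222) and fell by 2.06 at 24 h (adjusted p = 0.0281), lower in both genotypes each time. Of all probe sets, 0.465%, 0.989% and 2.2% were called as lower at these times, and 0.631%, 0.956% and 1.24% as higher. With the filter on low values left out the adjusted p was 0.183, 0.154 and 0.152 in limma. Without 1 array it was 0.125 to 0.404 at 4 h for each of the 6 arrays of 0, 4 and 8 h, and the change itself was -2.62 to -2.98. The call was likewise lost without each of these 6 arrays at 8 h (0.0962 to 0.302) and at 24 h (0.1 to 0.178), and at 24 h also without the KO-labelled 24 h array (0.0799) and with no replicate block (0.0619). With the floor at the 60th percentile the change was -1.37 at each time. The 3 times share the 0 h arrays and are not independent.

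The other tested Tcf3 probe set, 1426297_at, had the same direction in both genotypes at each time but did not pass. Its mean changes were -1.32, -1.41 and -1.15 (SE 0.48, limma adjusted p = 0.303, 0.178 and 0.232). In the KO-labelled arrays it stood at -1.27, -2.11 and -1.84 against 0 h, and in the WT-labelled ones at -1.37, -0.72 and -0.46. The 2 probe sets correlated at r = 0.89 over the 8 arrays but differ in size of change and in its recovery, and which transcripts each reports was not analysed here.

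Id1 was the one member at least 2-fold higher than at 0 h in both genotypes at 4 and 8 h, as were 2.42% and 2.86% of all probe sets. Against 0 h it was 3.36-fold higher at 4 h in the KO-labelled and at least 2.95-fold higher in the WT-labelled arrays, and at 8 h it was 2.55-fold higher in the KO-labelled and at least 2.82-fold higher in the WT-labelled arrays. The mean changes of 1.65 and 1.42 (SE 0.44) did not pass in limma (adjusted p = 0.174 and 0.15). At 24 h the KO-labelled array stood at -0.33 and the WT-labelled one at 1.02.

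Id3 and Id2 had lower signals after stimulation in the WT-labelled arrays. Id3 stood at -1.28, -1.42 and -1.2 there at 4, 8 and 24 h, beside 0.22, -0.79 and -0.06 in the KO-labelled arrays, where its 0 h signal was 311. Its mean change at 8 h was -1.1 (SE 0.43, limma adjusted p = 0.22). The 3 Id2 probe sets had mean changes of -0.81, -1.01 and -1.03 at 4 h (limma adjusted p = 0.616, 0.617 and 0.635). Tcf4 was lower at 24 h in all 5 probe sets and both genotypes, with mean changes of -0.73 to -1.41, and its smallest adjusted p was 0.0669 (1434148_at, change -1.34, SE 0.31, limma), which did not pass. In 1434148_at and 1434149_at the WT-labelled 24 h signal was under the floor, so the WT-labelled falls there are lower bounds in size. At 24 h the B cell markers had a median change of -1.82, with 3 of 6 called lower. The granulocyte precursor markers had -3.3 (7 of 11 called lower) and the monocyte and macrophage markers -2.07 (3 of 8). The T cell markers had 0.11, with 0 called lower. Of all probe sets, 2.2% were called lower at 24 h. The part of these marker changes in the Tcf4 signal was not tested. Tcf12 stood within 0.58 of 0 h on the log2 scale in the mean at every time. Against 0 h, 2 of the 14 were at least 2-fold lower in both genotypes at 4 h, 1 at 8 h and 4 at 24 h, beside 2.38%, 4.73% and 4.92% of all probe sets, and at 24 h 0 were higher in both, beside 2.23%. At 24 h 5 of the 14 (Id2 and Tcf12) stood above 0 h in the KO-labelled and below it in the WT-labelled array, beside 19.4% of all, and Id1 the other way round, beside 17.2%. At 4 h these counts were 5 and 0, beside 15% each. The median change of the 14 probe sets was -0.43, -0.58 and -0.68 at 4, 8 and 24 h, beside -0.09, -0.1 and -0.07 over all probe sets tested.

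**Figure D4:**
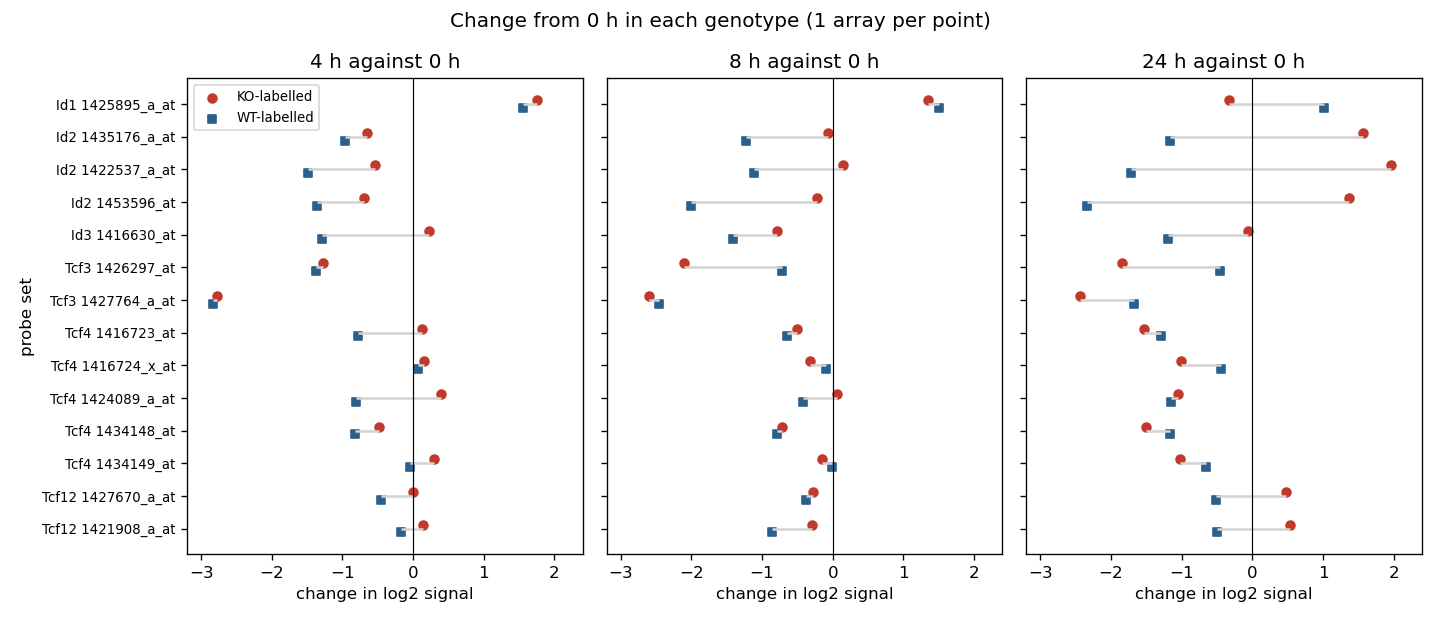
Change in log2 signal from 0 h (x axis) of the 14 probe sets (y axis) at 4, 8 and 24 h, with red circles for the KO-labelled and blue squares for the WT-labelled arrays, 1 array each. The Tcf3 probe set 1427764_a_at lies left of -1.6 in both genotypes at each time, and the 3 Id2 probe sets lie on opposite sides of 0 at 24 h.

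By a rule that named the genes with the most similar course, those most like each member were found by Pearson's r over the 8 arrays among 5385 genes that spanned at least 2-fold. The points share arrays and cell makeup, and with 8 points and so many genes high values are common. Id1 was nearest to Mapkapk2 (r = 0.97), Ncf1 (0.96) and Cebpb (0.96). Id2 was nearest to the perforin gene Prf1 (r = 0.96), Cd36 (0.96) and Cnnm4 (0.96), and Id3 to Tbc1d14 (0.99), Zfp825 (0.97) and Pik3cd (0.96). Cnnm4 was above the floor only in the KO-labelled 24 h array (330.1) and the WT-labelled 0 h array (231.9). Cd36 was under it in the KO-labelled 4 h array and the WT-labelled 4, 8 and 24 h arrays. Tcf4 was nearest to Hhex (r = 0.99), Tbc1d10b (0.98) and Ctbp2 (0.98), Tcf12 to Gtf2ird2 (0.99), Usp34 (0.97) and Gimap7 (0.96), and Tcf3 to Ift140 (0.98), Ubr7 (0.96) and Trim37 (0.95). Hhex is a homeobox factor of blood progenitors and B cells. It gave 1613, 1897, 927.6 and 386.4 in the KO-labelled arrays, against 617.3, 202.4, 282 and 160.9 in the WT-labelled ones. Hhex was chosen for its r with Tcf4 over these arrays, so its likeness in course is not a separate result.

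Other genes of the network were described as lists. Of 15 genes of the Id and E protein partner network, 11 were tested, and their median difference between genotypes was 0.00, 0.48, 0.46 and 0.18 at 0, 4, 8 and 24 h, beside 0.00, 0.00, -0.08 and 0.00 over all genes tested. Lyl1, a basic helix-loop-helix partner of E proteins in blood progenitors, was the 1 gene at least 2-fold higher at all 4 times (2.02, 2.3, 1.71 and 1.23, the last a lower bound). Of all probe sets, 1.59% met the same rule. Lmo2, an adaptor that joins such dimers, stood at 1.49, 2.49, 2.69 and 0.18. Ldb1 was lower at all 4 times (-0.28, -1.08, -0.25 and -0.53), and Hes1 stood at -1.01 at 0 h. Lmo4 stood at 1.7 and 1.42 at 4 and 8 h, Cbfa2t3 at 1.98 at 4 h, and Bhlhe40 and Mxi1 at 2.07 and 2.81 at 24 h. In all, 2, 4, 3 and 3 of the 11 were at least 2-fold higher (7.48%, 10.3%, 10.4% and 8.36% of all probe sets). At least 2-fold lower were 1, 1, 0 and 0 (7%, 6.79%, 6.77% and 4.87%). After stimulation Tal1, the partner of E proteins in red cell precursors, fell by 2.56 at 24 h (limma adjusted p = 0.0321), and Lyl1 fell by 2.49 (adjusted p = 0.023). Bhlhe40, a repressor induced in activated T cells, rose by 3.72 at 8 h and by 4.24 at 24 h (limma adjusted p = 0.05 after rounding and 0.0271). The remaining 8 tested genes passed at no time. The red cell markers fell too, with 2 of 3 called at 24 h.

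Of 21 known or proposed target genes of E proteins, 14 were tested, with median differences of -0.18, -0.18, -0.27 and 0.36 between genotypes. At 0 h 1 was at least 2-fold higher and 5 at least 2-fold lower in the KO-labelled array, beside 7.48% and 7% of all probe sets. At 24 h 4 were higher and 0 lower, beside 8.36% and 4.87%. The 1 higher at 0 h was Gfi1 (1.39), the targeted gene, which is also among the 4 at 24 h (1.32), as is Socs3 (1.85). Foxo1, a factor of naive T cells, stood at -1.92 at 0 h and 0.43 at 24 h, the interleukin-7 receptor Il7r at -1.39 and 1.19, and the chemokine receptor Cxcr5 at -1.4 and 0.24. Cd4, also at least 2-fold lower at 0 h, stood at -1.79 and was still lower at 24 h (-0.74). Hes1 stood at -1.01 and 0.28, the last a lower bound. The cell cycle inhibitor Cdkn1a stood at 0.86 and 2.23. The T cell marker sum was also lower in the KO-labelled arrays at 0 h and not at 24 h, and its part in these values was not tested. After stimulation Cdkn1a and the cytokine signalling inhibitor Socs1 rose at all 3 times (by 4.96 and 2.79 at 24 h, limma adjusted p = 0.00895 and 0.0133), Gfi1 rose at 24 h, Gfi1b fell at 4 and 24 h and the B cell receptor chain Cd79a fell at 8 and 24 h. The other 9 passed at no time, and Rag1, Rag2 and Ptcra, targets in thymocytes, were not among the tested genes.

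Genes upstream of Id genes were also taken as lists. Of the Egr factors, Egr2 rose at all 3 times, by 4.55 at 4 h (limma adjusted p = 0.00107), and was lower in the KO-labelled array at each time, with differences of -1.44 to -1.96 on the log2 scale. Egr1 gave 3203, 8584, 3862 and 2133 in the KO-labelled arrays, against 2611, 21139, 15086 and 4230 in the WT-labelled ones, with a mean change of 2.22 at 4 h that did not pass in limma (adjusted p = 0.109). The WT-labelled 4 h array held the highest signals of Egr1, Egr2 and Egr3 (286.1 for Egr3). Its Id3 signal was 564.4 beside 1375 at 0 h, and a link between the Egr factors and Id3 was not tested. Of 24 genes of TGF-beta and BMP signalling, 20 were tested and 0 passed the limma test at any time. Their median differences between genotypes were -0.26, -0.27, -0.19 and 0.08. Acvr1, a type I receptor of BMP signals, was at least 2-fold higher in the KO-labelled array at all 4 times. It was the 1 such gene of the 20, beside 1.59% of all probe sets. It gave 333.5, 444.8, 371.5 and 548 in the KO-labelled arrays, against 34.3, 86, 118 and 109.7 in the WT-labelled ones. All 4 WT-labelled signals were under the floor, so its differences are lower bounds. The receptor gene Tgfbr2 stood at -1.35, -1.06 and -1.26 at 0, 4 and 8 h and at 0.4 at 24 h.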

How the data were processed

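Each of 8 RNA samples was hybridised to 1 Affymetrix MOE430A_2.0 array. The deposited values are signal intensity on a linear scale. The submitters' processing notes name GCOS 1.4 and MAS5, and do not give further steps. The table held 22690 probe sets, 64 of them controls, the trimmed mean was 1000.4 to 1000.5 on every array, and 56.5% to 61.5% of probe sets were above the floor. With 0 unused columns, every column was analysed. Probe sets were named from the platform annotation (20380 with 1 gene symbol, 691 with several, 1555 with none).

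From the signals, log2 was taken after setting the floor, and the 15062 probe sets above it on at least 2 arrays were tested. Stimulation was tested with limma 3.58.1 in R 4.3.3 (time and genotype in the model, variance trend, Benjamini-Hochberg over all probe sets), with 3 residual degrees of freedom. The genotype term is also the source number, so it pairs arrays of 1 source across times. Differences between genotypes were called by size. The number of arrays limits the precision. A gene in a list, or in a search for similar courses, was represented by its tested probe set with the highest mean.

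Named were all probe sets of the members, the 3 genes most like each member, members of the lists past a comparison's rule, and Gfi1. Egr1, Lmo2, Foxo1, Il7r, Cxcr5, Tgfbr2, Spib, Irf8, Bst2, Klrd1, Nkg7 and Eomes were named after their values were seen where they fall outside this rule. The same holds for Egr3, Camp, Ltf, Ngp, Thy1 and Trat1. The members and lists were chosen with earlier results of these data known. Upstream sequences are from RefSeq (GRCm38.p6), matched by symbol. The limma step was tested on simulated data. Figures came from matplotlib 3.10.9 (python 3.11.15).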

Additional observations from a re-analysis of the deposited data

Results flagged for a closer look

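Taking for each gene the tested probe set with the highest mean, in 5 cases the change from 0 h ran in opposite directions in the 2 genotypes, each from 1 array per genotype and time, so the difference was not tested. At 24 h Id2 (1435176_a_at) had a change of 1.57 in the KO-labelled and -1.16 in the WT-labelled array, a difference of 2.73 on the log2 scale. Id1 stood at -0.33 in the KO-labelled and 1.02 in the WT-labelled array at 24 h, a difference of -1.35. Tcf12 (1427670_a_at) stood at 0.48 in the KO-labelled and -0.52 in the WT-labelled array at 24 h, a difference of 1.00. At 4 h Id3 stood at 0.22 in the KO-labelled and -1.28 in the WT-labelled array, a difference of 1.51, and Tcf4 (1416723_at) at 0.12 in the KO-labelled and -0.78 in the WT-labelled array, a difference of 0.91. Of the other 4 Tcf4 probe sets, 2 ran in opposite directions at 4 h, 1416724_x_at was up in both genotypes (0.16 in the KO-labelled and 0.07 in the WT-labelled array) and 1434148_at was down in both (-0.48 in the KO-labelled and -0.82 in the WT-labelled array). Of all probe sets tested, 19.4% ran up in the KO-labelled and down in the WT-labelled arrays at 24 h, and 15% at 4 h, while 17.2% ran the other way at 24 h.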

How the results depend on the processing

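Each array stands alone for its genotype and time, which limits every value. Leaving out 1 array in turn, the mean change lay between -1.08 and 0.015 for Id3 at 4 h, between -0.80 and 0.14 for Tcf4 at 4 h, between -0.49 and 0.025 for Tcf12 at 4 h, between -1.35 and 0.051 for Id2 at 8 h, between -0.33 and 1.03 for Id1 at 24 h, between -0.92 and 1.32 for Id2 at 24 h, and between -0.43 and 0.39 for Tcf12 at 24 h. Mean changes that turned sign were, without the WT-labelled 0 h array, Id3 (0.015) and Tcf12 (0.025) at 4 h, Id2 (0.051) at 8 h and Tcf12 (0.24) at 24 h. Without the WT-labelled 4 h array Tcf4 was at 0.14 at 4 h, and without the WT-labelled 24 h array Id1 was at -0.33 and Tcf12 at 0.39 at 24 h. Id2 at 24 h was at -0.50 without the KO-labelled 0 h array and -0.92 without the KO-labelled 24 h array. Id1 at 24 h was at -0.041 with the floor at the 60th percentile, and Tcf12 at 0.27 with each array divided by its median. None of these had passed the test. Differences between genotypes that turned sign, each from under 2-fold, were Tcf3 (1427764_a_at) at 4 h, at -0.01 with quantile normalization and -0.04 on scaling to array medians, Tcf12 at 24 h, at -0.10 on that scaling, and Id2 at 8 h, at -0.12 with the median over its probe sets.

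Stimulation called 165, 293 and 519 probe sets at 4, 8 and 24 h, against 75, 116 and 166 with the floor at the 60th percentile, 16, 13 and 17 with no filter, and 723, 1144 and 1077 by at least 2-fold in both genotypes. With no replicate block (genotype left out) it called 68, 98 and 91. Without each array in turn it called 0 to 266, 0 to 654 and 0 to 1123. Of the 14 member probe sets, 1 was called at each time, against 0 with no filter at each time, 0 at 24 h with no replicate block, 3, 2 and 4 by at least 2-fold in both genotypes, and 0 to 1 without each array in turn. The cause of these moves was not tested, apart from the fewer arrays or other probe sets each setting brings.

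Genotypes differed by at least 2-fold in 2181, 2578, 2579 and 1992 probe sets at 0, 4, 8 and 24 h. The counts were 3987, 4525, 5245 and 4304 with the floor at the 20th percentile, 1209, 1534, 1365 and 1059 with it at the 60th, 5145, 5597, 5896 and 4898 at 1.5-fold, and 636, 1011, 935 and 646 at 3-fold. Of the member probe sets 6, 5, 5 and 5 passed, against 3, 2, 1 and 2 with the floor at the 60th percentile, 2 and 3 at 8 and 24 h with the floor value added before log2, 11, 9, 8 and 9 at 1.5-fold, and 2, 1 and 3 at 0, 8 and 24 h at 3-fold. At all 4 times 263 probe sets passed, against 414 and 83 with the floor at the 20th and 60th percentile, 635 at 1.5-fold, 105 at 3-fold and 278 to 735 without the pair of arrays of 1 time. Of the members 1 passed, against 0 with quantile normalization, scaling to array medians, the floor at the 60th percentile, the floor value added before log2 or 3-fold, 4 at 1.5-fold and 1 to 2 without 1 pair.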
